A study of Homo sapiens with 4 samples.

Results

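Keratins and genes of the cornified envelope were examined in UMSCC74B, an established line from a squamous carcinoma of the head and neck, in 2 libraries from cells given control shRNA and 2 libraries labelled PRMT5 KD. Members were the names formed by KRT with a number and at most 1 letter, the names starting with SPRR and a number, and IVL, TGM1, TGM3, LOR, FLG, CNFN, EVPL, PPL, CSTA, SCEL, RPTN and KLK5 to KLK8. Keratin-associated proteins were left out. This gave 82 of the 29655 distinct gene names, 56 of them keratins and 26 of them envelope genes or their proteases. All cells were sampled after 72 h and shared the line and its medium, and the groups differed by label in the shRNA plasmid alone (genotype WT against PRMT5 KD). The labels describe transfection of plasmids and the methods of the study describe lentiviral particles. No label says that replicates were separate cultures, so p-values measure only the spread between these libraries, which may be technical. The study reports an immunoblot as evidence that this shRNA silenced PRMT5, and protein was not measured in these libraries. The transcript of the targeted gene went against its label. PRMT5 had 3732 and 4215 counts in control against 6285 and 7150 counts under the PRMT5 KD label (edgeR quasi-likelihood test, log2 fold change 0.66, standard error 0.12, FDR = 0.00547), and without control 2 the call was lost (FDR = 0.0678). Log2 fold changes are written log2FC, standard errors SE, and p-values adjusted over all genes tested by the Benjamini-Hochberg method FDR. All directions given here are by label.

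Keratins form the intermediate filaments of epithelial cells, each filament being built from pairs of an acidic type I and a basic type II chain. KRT5 and KRT14 mark the basal layer of stratified epithelium, KRT1 and KRT10 its differentiating layers, KRT6, KRT16 and KRT17 activated or wounded epithelium, and KRT8, KRT18, KRT7 and KRT19 simple epithelium, while a further set is made in hair and nail. In the outermost cells, transglutaminases cross-link involucrin, loricrin, small proline-rich proteins and cystatin A onto a scaffold of plakins such as periplakin and envoplakin, which makes the cornified envelope.

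Most of this set was at or near 0 in these libraries. No count was found in any of the 4 libraries for 38 members, 26 had 1 to 30 counts over the 4 libraries together, 8 had 31 to 250 and 10 had more than 250. The depth behind these numbers was 41863847 to 53550074 counts on the genes tested, and a count of 0 allows up to 3 counts, or 0.0600 to 0.0758 CPM (counts scaled to a common library size with edgeR's TMM factors). Counting error alone is covered by that limit. The 10 members above 250 counts were also the 10 that passed the filter on low values, which asked for 0.5 RPKM (reads scaled for length and depth) or more in both replicates of a group. They were the simple epithelial keratins KRT18, KRT8 and KRT7, the stratified keratins KRT80 and KRT10, the hair keratins KRT81, KRT86 and KRT34, and the envelope genes PPL and CSTA. A member that passed because 1 group was high was bound to differ. This was so for KRT7, which had 0.423 and 0.345 RPKM in control and passed through the PRMT5 KD libraries alone, and for PPL, which had 0.373 and 0.316 RPKM under the PRMT5 KD label and passed through control alone. The other 8 passed in both groups, and the counts of calls below describe these 10 genes only.

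Of the 10 tested members, 3 were called higher in the libraries labelled PRMT5 KD (KRT34, KRT7 and KRT81), 2 were called lower (PPL and KRT8) and 5 passed neither way, at an FDR under 0.05 and a log2FC of at least 0.5 in size. Over all 11897 genes tested, 45.5% were called, 21.2% higher and 24.3% lower, so 5 of 10 is close to the share among all genes. The median log2FC was 0.09 over the 10 members and -0.01 over all genes tested.

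**Figure D1:**
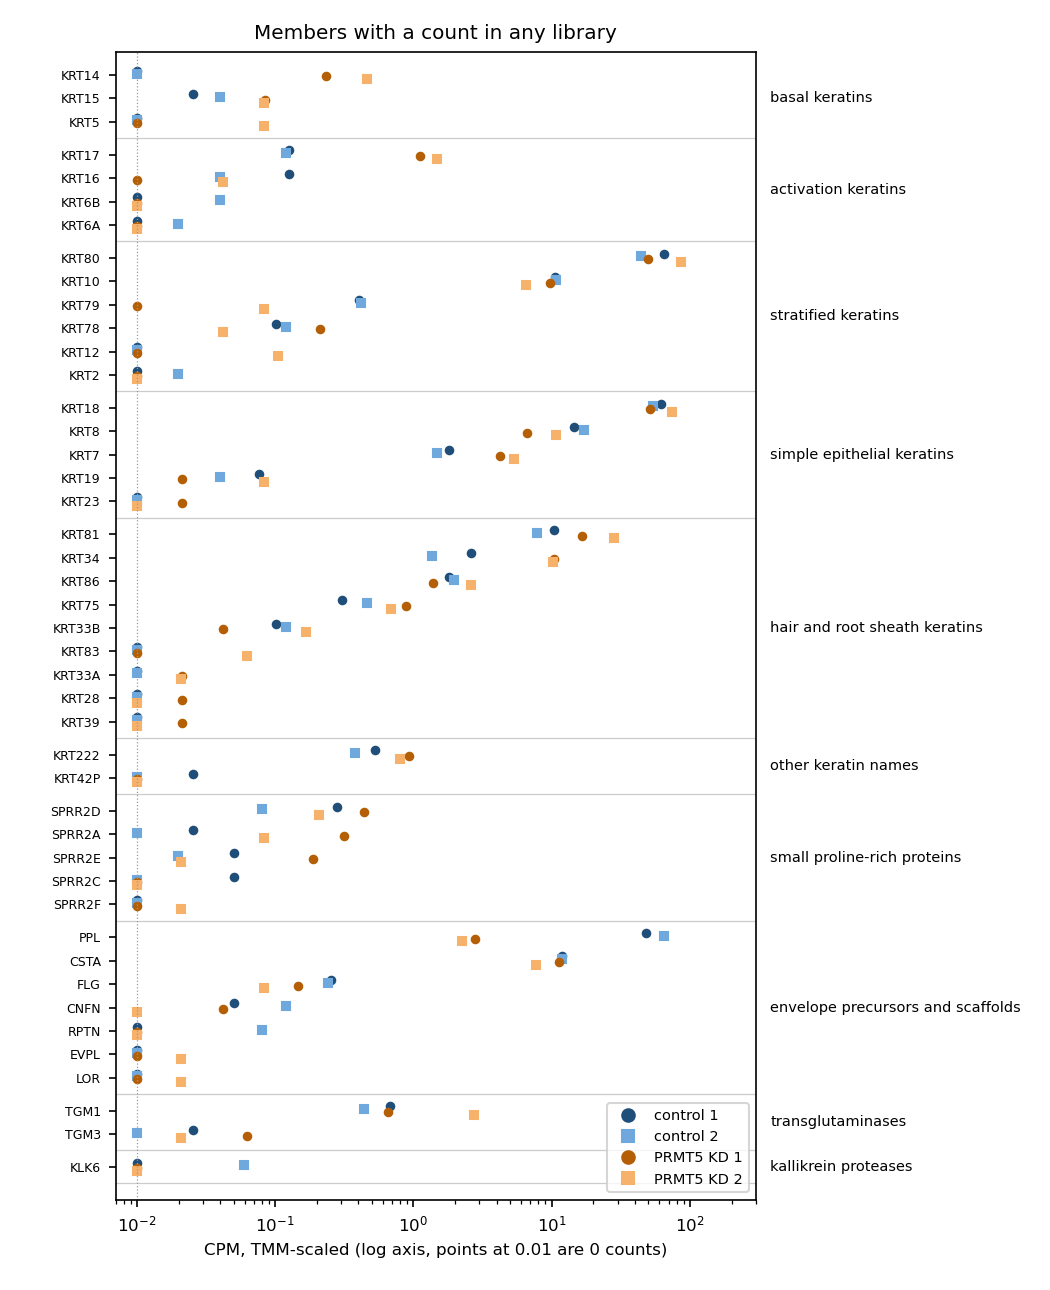
Level of the 44 members with a count, by role, in CPM on a log axis, with 1 point per library and libraries at 0 counts drawn at 0.01. The 10 tested members lie above 1 CPM in every library, and most of the basal, activation, small proline-rich and kallikrein names lie at or near 0.

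Keratins of stratified squamous epithelium were examined first, since the line is labelled as squamous carcinoma. KRT5, the basal type II chain, had 0, 0, 0 and 4 counts in control 1, control 2, PRMT5 KD 1 and PRMT5 KD 2, the order used from here on. KRT14, its type I partner, had 0, 0, 11 and 22 counts. KRT15, another basal type I chain, had 1, 2, 4 and 4 counts. Both KD libraries lay above both controls for KRT14 and KRT15, and none of the 3 basal keratins reached the filter. Set against an upper limit of 3 counts in each control library, mean CPM of KRT14 was 5.09-fold higher under the PRMT5 KD label. No limit was taken on its KD counts. KRT17, named after its values were seen, had 5, 6, 53 and 71 counts, or 0.123 ± 0.00452 CPM in control and 1.30 ± 0.262 CPM under the PRMT5 KD label (SD, n = 2 each). The KD libraries were 10.6-fold above control in mean CPM, with no overlap. The other activation keratins stayed at 5 counts or fewer in every library. KRT16 had 5, 2, 0 and 2 counts, KRT6A and KRT6B together had 3 counts, all in control 2, and KRT6C had none.

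KRT14 and KRT17 were not tested under the main filter, and they were called higher when the filter was removed (FDR = 0.00454 and 0.000480, edgeR) and with edgeR's own filter. Without a filter SPRR2A was also called higher (FDR = 0.0407), on 1, 0, 15 and 4 counts, and KRT79 lower (FDR = 0.0209), on 16, 21, 0 and 4 counts. KRT14 and KRT16 share long identical stretches of coding sequence, and the stretches that KRT17 shares with KRT14 are shorter. In PRMT5 KD 2 the deposited values of KRT14 and KRT16 were 21.783 and 2.217, which add up to 24, while that of KRT17 was a whole number. Fitted as 1 feature, the 3 genes had 10, 8, 64 and 95 counts and a log2FC of 3.02 (SE 0.44, FDR = 0.00215, edgeR). The sum passed the filter through the PRMT5 KD libraries alone, so it was bound to differ. The sum was higher in both KD libraries than in either control.

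The differentiating layer was represented by 1 partner only. KRT10 had 417, 538, 462 and 311 counts, while KRT1, the type II chain it pairs with in epidermis, had no count in any library. KRT10 stood at 10.6 ± 0.155 CPM in control and 8.10 ± 2.27 CPM under the PRMT5 KD label (SD, n = 2 each), with the KD libraries below the controls in CPM and PRMT5 KD 1 close to them. The log2FC was -0.39 (SE 0.22, FDR = 0.172, edgeR) and passed the test only without PRMT5 KD 1 (-0.67, FDR = 0.0139). KRT80, a type II keratin of several epithelia that was named, with CSTA and KRT86, after its values were seen to complete the 10 tested members, had 2584, 2220, 2369 and 4112 counts. PRMT5 KD 2 was its highest library and PRMT5 KD 1 lay between the controls. Its log2FC was 0.31 (SE 0.32, FDR = 0.453), and -0.13 without PRMT5 KD 2. KRT4 and KRT13, the pair of non-cornified oral mucosa, had no count.

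The simple epithelial pair KRT8 and KRT18 was examined next. KRT18, the type I chain, had 2444, 2707, 2450 and 3514 counts. KRT8, its type II partner, had 572, 854, 317 and 517 counts. Both KD libraries lay below both controls for KRT8, while for KRT18 the groups overlapped and PRMT5 KD 2 was highest. KRT8 fell from 15.8 ± 1.85 to 8.74 ± 2.94 CPM (SD, n = 2 each), a log2FC of -0.85 (SE 0.25, FDR = 0.0293, edgeR). KRT18 was at 57.9 ± 5.40 and 62.5 ± 15.6 CPM, a log2FC of 0.11 (SE 0.19, FDR = 0.644) that turned to -0.16 without PRMT5 KD 2. The KRT8 call was lost on total counts without TMM scaling (log2FC -0.67, FDR = 0.0717), with a correction for the length and GC content of exons (-0.65, FDR = 0.0613), without control 1 (-0.97, FDR = 0.0849) and without control 2 (-0.73, FDR = 0.172), and the sign was negative in each of these. Without PRMT5 KD 1 it held at -0.51 (FDR = 0.0352) and without PRMT5 KD 2 at -1.24 (FDR = 0.000337).

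On CPM per kilobase of the MANE Select transcript, the ratio of KRT18 to KRT8 was 5.40 and 4.0 in control against 9.76 and 8.58 under the PRMT5 KD label. Both KD ratios lay above both control ratios, at means of 4.70 ± 0.985 and 9.17 ± 0.832 (SD, n = 2 each). With 2 libraries against 2, a two-sided exact permutation test cannot go below p = 0.333, and the difference between the ratios was not tested. KRT8 and KRT18 lie on opposite strands and their annotated spans overlap at chr12:52948871-52949954. The library kit marks strand, and whether the counting used it is not given in the sources used here. Both genes have processed pseudogenes, and how reads shared with those were assigned was not tested.

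KRT7, a type II keratin of glandular and transitional epithelium, had 71, 74, 200 and 256 counts. The 2 controls were close to each other and both KD libraries lay well above them, at 1.64 ± 0.222 CPM against 4.78 ± 0.814 CPM (SD, n = 2 each). KRT7 rose by a log2FC of 1.55 (SE 0.26, FDR = 0.00357, edgeR), which missed the threshold only without control 2 (1.41). It passed the filter through the PRMT5 KD libraries alone, so it was bound to differ. KRT19, the smallest type I keratin and a common partner of KRT7, had 3, 2, 1 and 4 counts, KRT23 had 1 count in all and KRT20 none. KRT8, KRT18 and KRT7 were thus the simple epithelial keratins with more than 10 counts in all.

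**Figure D2:**
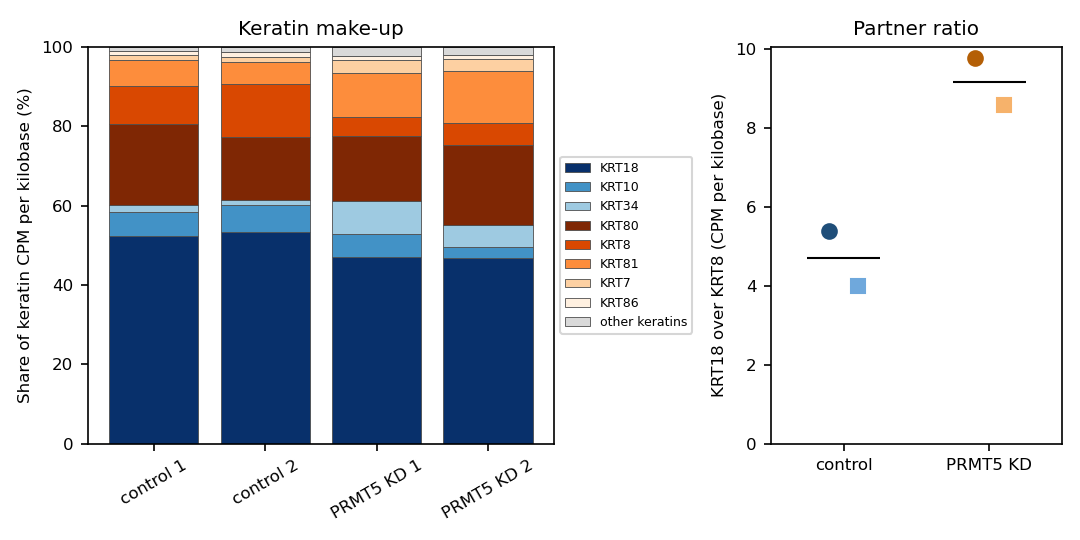
Left, share of keratin CPM per kilobase taken by each of the 8 tested keratins and by all other keratin names, per library (%). Right, ratio of KRT18 to KRT8 in CPM per kilobase, with 1 point per library and a line at each mean. KRT8 took 9.72% and 13.3% of keratin in control against 4.82% and 5.47% under the PRMT5 KD label, and the ratio was 4.0 to 5.40 in control and 8.58 to 9.76 under the PRMT5 KD label.

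Hair keratins made up the third tested group. KRT34 is a type I and KRT81 and KRT86 are type II hair keratins, and each has close copies beside it in the type I cluster on chromosome 17 or the type II cluster on chromosome 12. The coding sequences of KRT81 (1515 bases) and KRT86 (1458 bases) shared 1369 aligned bases, or 90.4%, with 1 run of 309 identical bases inside a single exon. Those of KRT34 (1182 bases) and KRT33B (1212 bases) shared 89.7%, with a longest run of 113 bases, and KRT34 shared 89.9% with KRT33A, with a longest run of 80 bases. The following sequences, from GRCh38 with GENCODE release 44 exons and written 5′ to 3′ along the coding strand, show where a read can tell KRT34 from a copy. They are coding bases 1111 to 1170 of KRT34 and KRT33B, the 60-base window in which they differ most, with the 18 differing bases in capitals.
KRT34, exon 7, chr17:41378074-41378133, minus strand: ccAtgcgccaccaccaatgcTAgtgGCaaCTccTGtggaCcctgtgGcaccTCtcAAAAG
KRT33B, exon 7, chr17:41363881-41363940, minus strand: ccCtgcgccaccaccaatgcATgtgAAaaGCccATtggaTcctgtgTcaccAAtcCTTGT

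The deposited values of such copies carried decimals that summed to whole numbers within 0.01. KRT81 and KRT86 had 413.915 and 72.085 estimated counts in control 1, 391.894 and 98.106 in control 2, and 783.503 and 66.497 in PRMT5 KD 1. Each of those pairs summed to a whole number (486, 490 and 850). In PRMT5 KD 2 the values were 1350.201 and 123.796, and with the 3.004 of KRT83 the 3 genes summed to 1477 within the same tolerance. The annotated span of KRT86 also covers KRT81 on the opposite strand (chr12:52285913-52291534) and the end of KRT7 on the same strand (chr12:52249300-52252186).

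KRT81 had 414, 392, 784 and 1350 counts after rounding, which was 9.15 ± 1.86 CPM in control and 22.4 ± 8.31 CPM under the PRMT5 KD label (SD, n = 2 each). Both KD libraries lay above both controls, and PRMT5 KD 2 lay above PRMT5 KD 1. KRT81 rose by a log2FC of 1.29 (SE 0.30, FDR = 0.0148, edgeR). It was 0.86 without PRMT5 KD 2, where it was still called. The call was lost without control 2 (1.10, FDR = 0.0966) and with a replicate block together with the length and GC correction (1.21, FDR = 0.0531). KRT86 had 72, 98, 66 and 124 counts, with overlapping groups and a log2FC of 0.07 (SE 0.36, FDR = 0.877). It was -0.44 without PRMT5 KD 2. Summed as 1 feature, a choice made after the data were seen, KRT81 and KRT86 had 486, 490, 850 and 1474 counts and a log2FC of 1.14 (SE 0.29, FDR = 0.0198), so the call on the pair did not depend on how reads were divided within it.

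KRT34 had 104, 68, 492 and 485 counts. The KD libraries were close to each other and both lay well above the controls, at 10.2 ± 0.138 CPM against 1.99 ± 0.897 CPM (SD, n = 2 each), a 5.14-fold ratio of means. KRT34 rose by a log2FC of 2.38 (SE 0.32, FDR = 0.00169, edgeR), and was called in the 18 alternatives that fitted it as a single gene, at values from 1.96 to 2.91. Its copies KRT33A and KRT33B had 2 and 20 counts in all. In PRMT5 KD 2 the deposited values of KRT33A, KRT33B and KRT34 were 1.248, 7.784 and 484.968, which add up to 494. The sum of the 3 genes had 108, 74, 495 and 494 counts and a log2FC of 2.31 (SE 0.30, FDR = 0.00153), again a sum chosen after the data were seen. KRT75, a keratin of the hair companion layer, had 12, 23, 42 and 33 counts and was not tested. Of the 26 hair and root sheath keratins, 17 had no count in any library, among them KRT31, KRT35, KRT85 and the inner root sheath keratins KRT25 and KRT71.

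Upstream sequence was examined for KRT34, KRT33A and KRT33B, since these neighbours had very different counts. The 150 bases before each RefSeq start site (GRCh38.p14) are printed with TATAAA in capitals, and each window held it once.
KRT34, chr17:41382307-41382456, minus strand: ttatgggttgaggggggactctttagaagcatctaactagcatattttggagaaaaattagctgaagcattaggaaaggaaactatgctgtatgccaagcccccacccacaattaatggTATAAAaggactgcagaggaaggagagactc
KRT33A, chr17:41350829-41350978, minus strand: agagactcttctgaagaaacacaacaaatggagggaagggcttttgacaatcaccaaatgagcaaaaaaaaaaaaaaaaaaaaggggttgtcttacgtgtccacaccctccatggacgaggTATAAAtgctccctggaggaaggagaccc
KRT33B, chr17:41369814-41369963, minus strand: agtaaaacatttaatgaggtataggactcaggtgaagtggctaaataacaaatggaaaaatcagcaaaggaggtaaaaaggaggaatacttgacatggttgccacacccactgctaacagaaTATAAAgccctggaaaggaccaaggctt
TATAAA began at -31, -29 and -28 from the start site, so these letters were present both at the copy with counts and at the copies near 0.

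**Figure D3:**
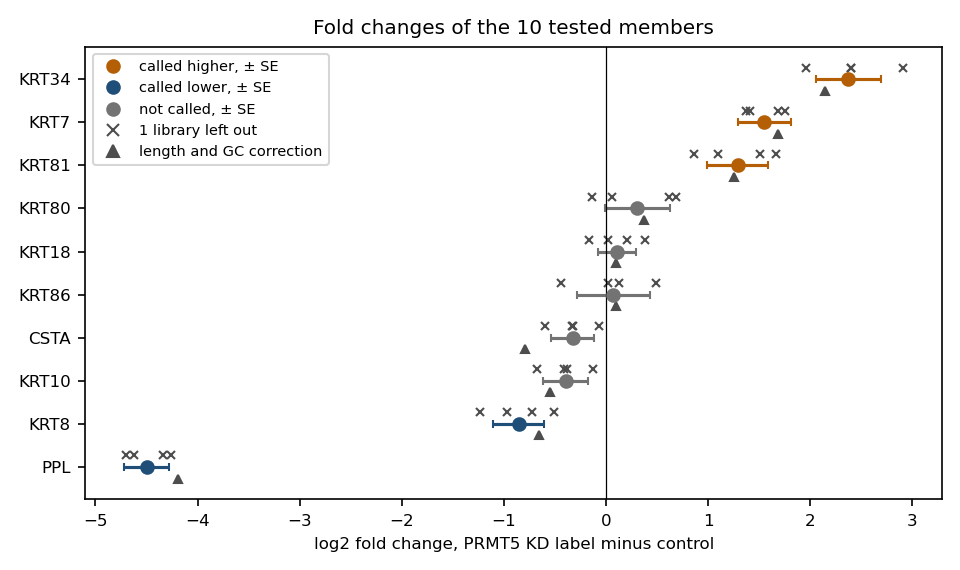
Log2FC of the 10 tested members, PRMT5 KD label minus control, with the SE, and the values with 1 library left out (crosses) and with the length and GC correction (triangles). KRT34 ranged from 1.96 to 2.91 and PPL from -4.70 to -4.26 with 1 library left out, while KRT18, KRT80 and KRT86 had values on both sides of 0.

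Among envelope genes, PPL had the largest change of all tested members. PPL encodes periplakin, a plakin that links keratin filaments to desmosomes and to the envelope, and lies on the minus strand at chr16:4882507-4960741. It had 1906, 3259, 132 and 107 counts. The KD libraries were close to each other and more than 10 times below either control, at 2.51 ± 0.379 CPM against 56.6 ± 12.0 CPM (SD, n = 2 each), a 22.6-fold ratio of means. PPL fell by a log2FC of -4.50 (SE 0.22, FDR = 0.000195, edgeR) and was called in all 19 alternatives, at values from -4.70 to -4.18. It passed the filter through control alone, so it was bound to differ. EVPL, which encodes its partner envoplakin, had 0, 0, 0 and 1 counts.

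CSTA, which encodes the protease inhibitor cystatin A, had 472, 593, 538 and 367 counts. The controls and PRMT5 KD 1 were close together and PRMT5 KD 2 was lowest, at 11.9 ± 0.0504 CPM in control and 9.49 ± 2.57 CPM under the PRMT5 KD label (SD, n = 2 each). The log2FC was -0.33 (SE 0.21, FDR = 0.230, edgeR). CSTA was called lower with the length and GC correction (-0.79, FDR = 0.0161) and with that correction and a replicate block (-0.81, FDR = 0.0200). The correction used its union exon length of 1366 bases, while its MANE Select transcript has 744 bases. The parts of length and GC content in that change were not tested apart. The log2FC was -0.59 without PRMT5 KD 1 and -0.07 without PRMT5 KD 2.

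The envelope precursors themselves were almost without counts. IVL, which encodes involucrin, had none in any library, and LOR, which encodes loricrin, had 0, 0, 0 and 1 counts. FLG, which encodes filaggrin, the precursor of the protein that bundles keratin in the uppermost layers, had 10, 12, 7 and 4 counts, with the KD libraries below the controls. SCEL, SPRR1A, SPRR1B, SPRR3 and SPRR4 had none. The SPRR2 genes together had 16, 5, 45 and 16 counts, with overlapping groups and a log2FC of 1.40 when fitted as 1 feature (SE 0.79, FDR = 0.177, edgeR). In control 1 the values of SPRR2A, SPRR2C and SPRR2D were 1.049, 2.133 and 10.818, which add up to 14. TGM1, the membrane-bound transglutaminase of keratinocytes, had 27, 22, 31 and 130 counts. The first 3 libraries were alike and PRMT5 KD 2 stood above them, and without a filter TGM1 was not called (FDR = 0.118). TGM3 had 5 counts in all. Of the kallikrein proteases that shed corneocytes, KLK5, KLK7 and KLK8 had no count and KLK6 had 3, all in control 2.

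The promoters of 3 envelope precursors are shown because their transcripts had at most 12 counts in any library. The AP-1 site (searched as TGANTCA) and TATAAA are in capitals in the 150 bases before each RefSeq start site (GRCh38.p14).
IVL, chr1:152908396-152908545, plus strand: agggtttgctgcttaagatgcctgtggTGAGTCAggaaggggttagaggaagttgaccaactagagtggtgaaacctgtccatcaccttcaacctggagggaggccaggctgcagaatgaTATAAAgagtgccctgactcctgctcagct
SPRR1A, chr1:152983931-152984080, plus strand: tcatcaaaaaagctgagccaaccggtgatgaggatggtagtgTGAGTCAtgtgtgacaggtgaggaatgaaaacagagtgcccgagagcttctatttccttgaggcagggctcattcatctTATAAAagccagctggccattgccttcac
FLG, chr1:152325240-152325389, minus strand: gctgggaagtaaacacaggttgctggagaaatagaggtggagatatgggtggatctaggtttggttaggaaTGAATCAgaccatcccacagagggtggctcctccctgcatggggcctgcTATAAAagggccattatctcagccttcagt
RefSeq promoter windows, from 250 bases before to 50 after the start site, were found for 51 of the 82 members, 34 keratins and 17 envelope genes or proteases. The AP-1 site (TGANTCA), the TATA box (TATAAA) and the GC box (GGGCGG) were searched on both strands, and matches to different motifs among these cannot overlap. TGANTCA was found in 10 of the 17 envelope windows and in 0 of the 34 keratin windows, against 7.76% of all 27305 windows. The 10 were FLG, IVL, RPTN, SCEL, SPRR1A, SPRR1B, SPRR2A, SPRR2F, SPRR2G and SPRR3, none of which was tested. TATAAA was found in 60.8% of the 51 windows and in 12.0% of all, at 20 of 34 keratins and 11 of 17 envelope genes. GGGCGG was found in 17.6% of the members' windows and 44.6% of all. Only the first window listed for each gene was used. Windows were matched for 3 tested members, of which KRT34 and KRT10 held TATAAA and KRT8 held none of the 3 motifs. The upstream bases of the KRT8 window (chr12:52926470-52926619) lie inside the annotated span of that gene, and any other start site of KRT8 was not searched.

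Levels were compared between members per kilobase of transcript. In control, KRT18 was highest at 41.0 ± 3.82 CPM per kilobase, followed by CSTA at 16.0 ± 0.0677 and KRT80 at 14.2 ± 3.82 (SD, n = 2 each). CSTA and KRT80 did not differ beyond their spread. PPL at 9.06 ± 1.92 and KRT8 at 8.83 ± 1.04 CPM per kilobase did not differ beyond it either, nor did KRT10 at 4.97 ± 0.0722 and KRT81 at 4.74 ± 0.962. KRT34, KRT7 and KRT86 stood at 0.840 to 1.22 CPM per kilobase. Under the PRMT5 KD label, KRT18 remained highest at 44.2 ± 11 CPM per kilobase, KRT81 stood at 11.6 ± 4.31 and KRT34 at 6.26 ± 0.0842, and PPL was lowest of the 10 at 0.401 ± 0.0606. PRMT5 KD 2 was the highest library for 5 of the 10 tested members and the lowest for 3.

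**Figure D4:**
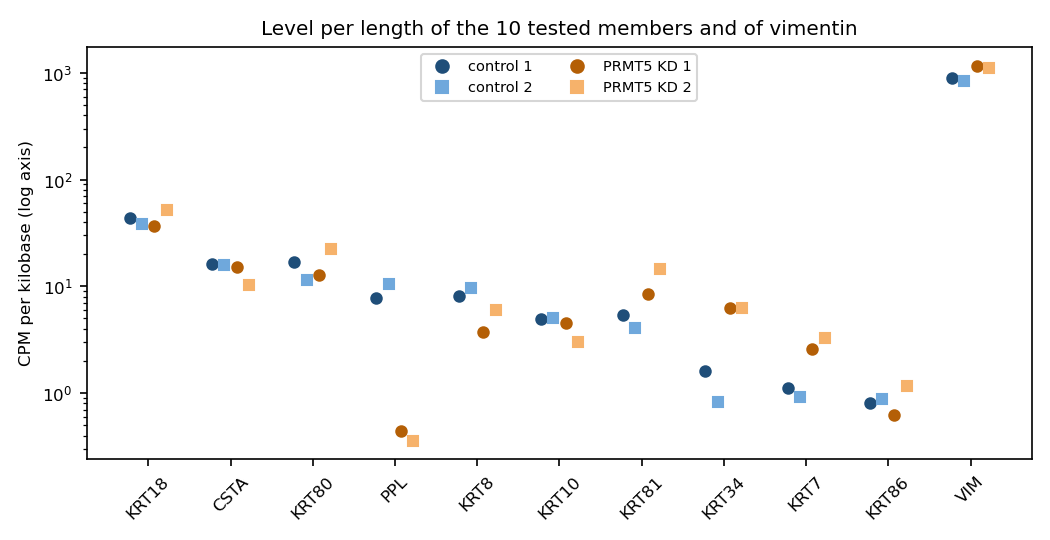
CPM per kilobase of transcript on a log axis for the 10 tested members, ordered by mean control level, and for VIM, with 1 point per library. VIM lies between 831 and 1166 in all libraries and KRT18, the highest member, between 36.4 and 52.0, and PPL falls from 7.70 and 10.4 in control to 0.444 and 0.358 under the PRMT5 KD label.

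All 56 keratin names together gave 83.4, 71.9, 77.4 and 110.9 CPM per kilobase. The groups overlapped, and PRMT5 KD 2 was the highest library. The 29 type I chains gave 50.7, 44.5, 48.6 and 63.1 and the 26 type II chains 32.7, 27.4, 28.8 and 47.8, a ratio of type I to type II of 1.59 ± 0.0527 in control and 1.51 ± 0.260 under the PRMT5 KD label (SD, n = 2 each). The make-up within that total differed more than the total did. KRT34 took 1.93% and 1.16% of keratin CPM per kilobase in control against 8.16% and 5.59% under the PRMT5 KD label, and KRT81 took 6.50% and 5.65% against 11% and 13.2%. KRT18 took 52.4% and 53.3% against 47.0% and 46.9%. VIM, the intermediate filament gene of mesenchymal and many cultured cells, named after its values were seen, was at 892, 831, 1166 and 1101 CPM per kilobase, which was 9.93 to 15.1 times all keratins together.

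The labelled cell type was checked against its markers. Of the keratins that define squamous epithelium, KRT5, KRT14, KRT6A and KRT1 were at or near 0, as were the envelope genes IVL and SPRR1A. Other stratified and envelope members were not. Across the 4 libraries KRT10 ranged from 311 to 538 counts, KRT80 from 2220 to 4112 and CSTA from 367 to 593. PPL, at 1906, 3259, 132 and 107, was well above 0 in every library, and KRT17, at 5, 6, 53 and 71, was low in all 4. Of 9 other squamous or epithelial markers, CDH1, which encodes E-cadherin, had 9, 4, 2 and 4 counts, and EPCAM had 37, 29, 40 and 48. TP63, the regulator of squamous identity, had 218, 330, 83 and 144 counts and was called lower (log2FC -1.35, SE 0.31, FDR = 0.0111), a call lost without control 1 (FDR = 0.0570) and without control 2 (FDR = 0.102). TP63 passed the filter through control alone, so it was bound to differ. PERP and DSG3 were called lower and PKP1 higher. With TP63, 3 of the 4 tested squamous markers were lower and 1 higher, beside 24.3% and 21.2% of all genes tested. Of those not tested, SFN had 3, 5, 28 and 86 counts, TRIM29 64, 12, 4 and 4, and DSC3 70, 98, 63 and 59. The summed CPM of the 9 markers was 196 to 200 in control and 125 to 150 under the PRMT5 KD label. PERP alone gave 135 and 146 CPM of it in control against 88.0 and 102 under the PRMT5 KD label. All 6 fibroblast markers (COL1A1, COL1A2, COL3A1, DCN, LUM and PDGFRB) were called lower, beside 24.3% of all genes tested. Their summed CPM was 629 and 727 in control against 87.6 and 97.2 under the PRMT5 KD label. Of them, COL3A1 passed the filter through control alone. All 6 cycling markers were called higher, beside 21.2% of all genes tested. Their summed CPM was 589 to 795 in control and 1951 to 1953 under the PRMT5 KD label. Endothelial markers summed to 10.9 and 14.8 CPM in control against 2.10 and 1.15 CPM under the PRMT5 KD label. PECAM1 had 293, 489, 14 and 7 counts, VWF 102, 205, 34 and 15, and CDH5 4, 8, 0 and 0. KDR had 34, 36, 52 and 33 counts, with overlapping groups. Leukocyte markers summed to 129 to 172 CPM over the 4 libraries, nearly all from CD68 and CD14, which moved in opposite directions. CD14 had 1371, 2000, 51 and 89 counts and was called lower (log2FC -4.67, FDR = 0.000240), and CD68 had 3746, 5653, 7257 and 8108 counts and was called higher (0.63, FDR = 0.00835). PTPRC was at 0 to 5 counts and CD3E at 0. Melanocyte markers summed to 1.97 to 2.97 CPM, with MLANA at 0. These lists moved between the same libraries as PPL, KRT8, KRT7, KRT81 and KRT34, and their part in the keratin results was not tested. In bulk samples, fewer cells of a type and less RNA per cell cannot be told apart.

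**Figure D5:**
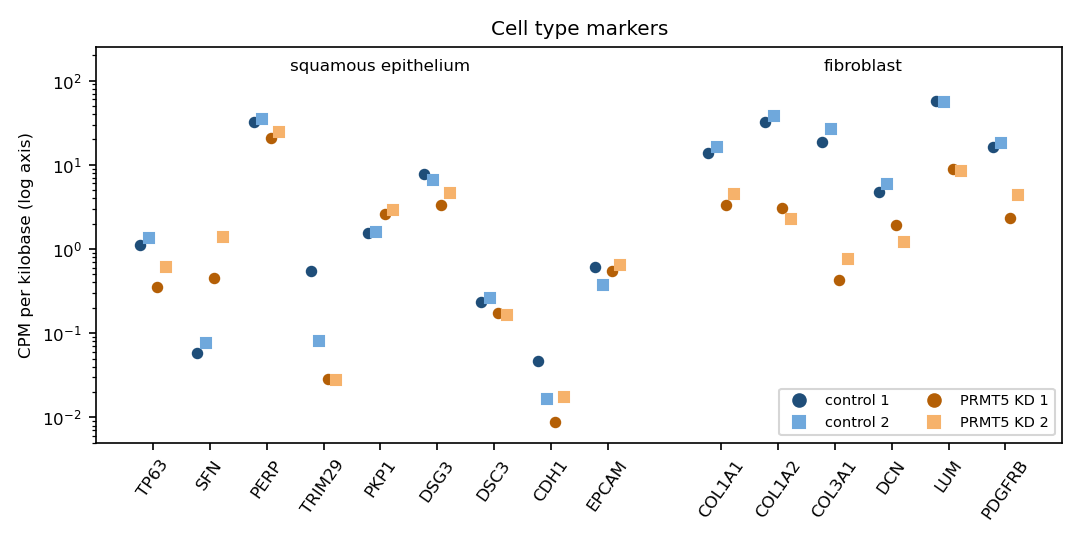
CPM per kilobase on a log axis of 9 squamous or epithelial and 6 fibroblast markers, with 1 point per library. All 6 fibroblast markers were called lower under the PRMT5 KD label, beside 24.3% of all genes tested, and CDH1 lies under 0.05 in all libraries.

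Other genes of epidermal differentiation, 82 outside the set, were listed by role from general knowledge, with earlier results of these data known. Of these, 22 were tested, 8 were called higher and 6 lower, against 45.5% of all genes tested called, 21.2% higher and 24.3% lower. Some of those calls fell on genes that passed the filter through 1 group alone, which were bound to differ. The median log2FC of the 22 was -0.11, and 43 of the 82 had fewer than 10 counts in every library. All 26 further genes of the epidermal differentiation complex, among them the late cornified envelope genes, had fewer than 10 counts in every library and 17 had none. Of 22 transcription factors, 11 were tested, 5 were called higher and 3 lower, beside 21.2% higher and 24.3% lower over all genes. KLF4, a factor needed for barrier formation, had 296, 322, 2166 and 3330 counts and rose by a log2FC of 3.05 (SE 0.24, FDR = 0.000474, edgeR). MAF, a factor of epidermal differentiation, had 179, 231, 46 and 27 counts, with both KD libraries below both controls, and fell by 2.57 on the log2 scale (FDR = 0.00124). MAF passed the filter through control alone, so it was bound to differ. ZNF750 had 1 count in all and GRHL3 had 2, 0, 4 and 3, and neither was tested.

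Of 19 proteases and inhibitors, 6 were tested, 3 were called higher and 1 lower, beside the same 21.2% and 24.3%. PI3, which encodes the transglutaminase substrate elafin, had 13, 19, 826 and 146 counts and a log2FC of 4.83 (SE 1.07, FDR = 0.0194, edgeR). PRMT5 KD 1 was far above PRMT5 KD 2, and both were above the controls. The call was lost without control 1 (FDR = 0.0749), without control 2 (FDR = 0.0855) and without a filter (FDR = 0.0788), and the log2FC was 3.13 without PRMT5 KD 1. SPINK6, an inhibitor of kallikreins, had 4, 3, 31 and 72 counts (log2FC 3.74, FDR = 0.00499), and SLPI had 43, 53, 15 and 9 counts (-2.08, FDR = 0.00682). SPINK6 passed the filter through the PRMT5 KD libraries alone and SLPI through control alone, so both were bound to differ. Without control 2 both calls were lost (FDR = 0.0605 and 0.0522). TGM2, the tissue transglutaminase and the 1 tested of 2 other transglutaminases, had 8580, 11972, 4471 and 4868 counts and fell (log2FC -1.22, SE 0.12, FDR = 0.000577). Of 12 genes of barrier lipids 4 were tested. CDSN, which encodes corneodesmosin, had 3 counts at most in any library.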

How the data were processed

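The members, the gene lists and the rule for named genes were chosen with earlier results of these data known. The authors deposited estimated counts per gene, 1 table per library, not normalized and with decimals. Between 79.4% and 80.4% of the nonzero values per library were whole numbers. The submitters' processing notes name FastQC, Trim Galore, STAR, Salmon, DESeq2 and GRCh38 without roles, and the methods of the study describe STAR and FeatureCounts on protein-coding genes. Of 29744 entries, 28 whose names read as dates were left out, which held 0.150% to 0.161% of the counts. Rows with equal names were summed, values were rounded, and 18923 names were matched to protein-coding genes of GENCODE release 44. LOR matched more than 1 gene and kept its deposited name. Named counts per library ran from 52185289 to 65964558, of which 80.4% and 81.4% in control against 71.5% and 79.5% under the PRMT5 KD label fell on protein-coding genes.

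Genes at 0.5 RPKM or more (union exon length) in both replicates of a group were tested, 11897 in all, with the quasi-likelihood test of edgeR 4.0.16 (robust, TMM factors from 0.935 to 1.09, Benjamini-Hochberg adjustment over all genes tested, written FDR) in R 4.3.3, and DESeq2 1.42.0 was an alternative. Calls required an FDR below 0.05 and a log2 fold change of 0.5 or more in size. Standard errors were the fold change over the square root of F, and the biological coefficient of variation was 0.142. CPM used TMM-scaled library sizes of the tested genes. Values per library are given for called members at 1 TMM-scaled RPKM or more in both replicates of a group, for KRT5, KRT14, KRT15, KRT8, KRT18, KRT19, KRT1, KRT10, IVL, TGM1, LOR and FLG, for the 2 called genes of each sub-list with the largest change in each direction, and for TP63, KLF4, ZNF750 and GRHL3, and others were named after their values were seen. Other scalings, filters, gene sets and thresholds, a replicate block, a length and GC correction (splines with 4 degrees of freedom), sums of similar copies and each library left out in turn were tried. The procedure was tested on simulated data in which 200 of 11897 genes were changed. There edgeR recovered 91% of them, and 3.7% of its calls were unchanged genes. In the real data 45.5% of genes were called, so the simulation does not cover a change of that extent. Intervals and limits cover counting error only, and reads copied by PCR are not independent molecules. Promoter windows are RefSeq's. Some named items and 1 sequence comparison are not reported here.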

Additional observations from a re-analysis of the deposited data

How the results depend on the processing

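KRT34 and PPL kept their direction and call under every alternative that fitted them as single genes. PPL passed the main filter through control alone, so it was bound to differ. Removing the filter gave 6 members higher and 3 lower of 41 tested, with 36.6% of all genes called, and edgeR's own filter gave 5 higher and 3 lower of 18, with 44.2% called, against 3 higher and 2 lower of 10 and 45.5%. Of the other differentiation genes, 13 were higher without a filter, against 8. Scaling by total counts left 1 member lower, as did a threshold of 1, at which 1032 genes were higher and 1528 lower over all genes. Total counts moved the median of all genes to 0.17 and the share of calls that were higher from 46.5% to 61.5%. With 1 library left out, members called higher ranged from 1 to 3 and lower from 1 to 4, and the other differentiation genes from 3 to 9 higher and from 3 to 6 lower. Leaving out control 2 gave the lowest counts of these, with 1 member higher (KRT34), 1 lower (PPL), and over all genes 1349 higher and 1759 lower, against at most 2765 and 2950 with another library left out, and leaving out PRMT5 KD 1 gave 4 members lower (CSTA, KRT10, KRT8 and PPL). Without PRMT5 KD 2 the log2 fold changes of KRT18, KRT80 and KRT86 turned to -0.16, -0.13 and -0.44, and without PRMT5 KD 1 they were 0.38, 0.69 and 0.49. The cause of these changes was not tested. Same-numbered libraries had deviations correlated at -0.10, so the numbers were not treated as pairs. A replicate block gave 5185 calls against 5418 and changed no call on a tested member, and a crossed block, added after the data were seen, gave 5486. With 2 libraries per group, 72 of the 82 members could not be tested at this depth and filter, and a single library decided several calls.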
